A study of Homo sapiens with 8 samples.

Results

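Interferon-stimulated effector genes were followed in RNA-seq of OVCAR3 cells, an established ovarian carcinoma line. The genes were chosen by symbol, with earlier results of these data known, as a list of 51 well-known interferon-induced genes. They were found in the deposited tables through the transcript names of each row, out of 20165 rows in all. A row was found for 50 of the 51 members. ISG15, an interferon-induced ubiquitin-like modifier, is not analysed here. Where a gene had several rows (3 for IFITM2, 2 each for IFIT2, IFITM1 and IFITM3), the row with the most exon counts was used. IFITM2, whose row used here holds 3 exon bases, had between 3 and 8 reads per library. It did not pass the filter on low counts, which left 49 members tested.

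The members were compared between 4 groups of 2 libraries. Parental OVCAR3 cells received 30 nM of a control siRNA (siControl) or an siRNA against OARD1, the gene of the ADP-ribosyl hydrolase TARG1 (siTARG1). The other two groups, here called the RACK1 lines, were stably transduced with lentiviruses and selected, and received 1 µg/ml doxycycline (Dox), which induces an shRNA against endogenous RACK1, a protein of the small ribosomal subunit, together with a tagged RACK1 that was either wild type (RACK1-WT) or without its acceptor sites for mono(ADP-ribose) (RACK1-Mut). All groups were harvested after 48 h, and no group was given an interferon. The RNA came from clarified lysates prepared as inputs for ribosome profiling and was depleted of rRNA. Neither an untreated parental culture nor transfected RACK1 lines are among the libraries analysed here.

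Interferons are secreted cytokines that signal through paired receptors and kinases such as JAK1. The type I and type III interferons act through a transcription factor that contains STAT2 and IRF9 and binds the interferon-stimulated response element (ISRE), whereas interferon gamma acts mainly at the gamma-activated site (GAS). The genes switched on in this way bind or degrade foreign RNA, hold virus particles at membranes, attach ISG15 to proteins, load peptides for T cells and attract leukocytes. Several, STAT2 and IRF9 among them, also belong to the pathway that induces them.

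Promoter sequences are shown for some of the members named in the comparisons below, all chosen from those in which the letters of the ISRE were found. In RefSeq promoters (GRCh38.p14, 250 bases before to 50 after a gene's start), the ISRE letters GAAANNGAAA were searched on both strands. They stood in a window of 28 of the 43 members with an entry, or 65.1%, in 4.38% of all 27305 genes with one and in 3.57% of all windows. The windows below are written in the direction of the gene, with the ISRE letters, or their reverse complement, in capitals.
IFIT1: cactttccccTTTCGGTTTCcctaggtttc
IFI44L: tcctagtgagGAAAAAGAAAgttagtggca
IFI6: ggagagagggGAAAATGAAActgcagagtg
MX1: ggtcactctgTTTCTCTTTCcgtgaataaa
RSAD2: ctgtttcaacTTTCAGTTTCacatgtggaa
HERC5: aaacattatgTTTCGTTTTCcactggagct
BST2: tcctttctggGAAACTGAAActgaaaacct
GBP1: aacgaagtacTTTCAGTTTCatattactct
ISG20: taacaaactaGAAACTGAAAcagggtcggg
IFI27: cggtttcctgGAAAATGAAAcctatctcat

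These windows lie on GRCh38.p14 at chr10:89392510-89392539 for IFIT1, chr1:78620365-78620394 for IFI44L, chr21:41431844-41431873 for MX1, chr2:6877622-6877651 for RSAD2, chr4:88457035-88457064 for HERC5, chr15:88638937-88638966 for ISG20 and chr14:94110631-94110660 for IFI27, all genes of the plus strand. Those of IFI6 at chr1:27672288-27672317, BST2 at chr19:17405741-17405770 and GBP1 at chr1:89065316-89065345 belong to genes of the minus strand. In IFIT1 the first base of the letters shown stands 103 bases before the annotated start, and in BST2 130 bases before it. CMPK2, HERC6, OAS1, SP100, SP110 and 10 other members had no such letters in their windows, which says only that these letters are not in those 300 bases. The GAS letters TTCNNNGAA stood in 16 of the 43 members, or 37.2%, and in 9.38% of all genes. TRIM22, USP18, IFIT2, IFITM2, CCL5, MX2, OAS2 and OASL had no entry.

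The libraries held between 30989049 and 42668783 exon counts. OARD1 stood at 48.5 and 52.0 CPM (exon counts per 1000000 counts of the TMM-normalized library) in siControl and at 3.10 and 3.97 in siTARG1. RACK1, counted over introduced and endogenous transcripts together, was at 4240 to 4660 CPM in the transfected cells and at 1400 to 1900 in the RACK1 lines. The summed ovarian carcinoma markers were at 2270 to 3920 CPM, and all 8 were detected in every library. Of the 14024 genes tested, the median log2 fold change was between 0 and 0.02 in every comparison reported here. Between the siControl replicates, 45 of 49 members were higher in replicate 1, by a median of 0.21 on the log2 scale, where the median absolute difference over all genes was 0.11. The corresponding medians were -0.01 in siTARG1, 0.05 in RACK1-WT and -0.06 in RACK1-Mut, so the counts of calls in comparisons with siControl alone are given below with and without each of its libraries.

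Together the 50 members made up 0.704% and 0.621% of exon counts in siControl, 0.723% and 0.722% in siTARG1, 0.348% and 0.340% in RACK1-WT, and 0.290% and 0.299% in RACK1-Mut. The groups thus fell into 2 pairs, with the 4 transfected libraries between 6400 and 7240 summed CPM and the 4 libraries of the RACK1 lines between 2880 and 3420. Per kilobase of exon, the highest level in siControl was that of IFI6, a small membrane protein, at 511 ± 35.2 CPM per kilobase (SD, n = 2), followed by IFIT1 at 281 ± 29.9 and B2M, whose libraries were at 191 and 209. PLSCR1 (131 ± 11.0) came next, and DTX3L (113 ± 11.4) and UBE2L6 (110 ± 8.62) did not differ beyond their spread. In RACK1-WT, B2M (198 ± 1.04 CPM per kilobase) and IFI6 (194 ± 7.31) overlapped at the top of the order, and IFIT1 stood at 68.2 ± 8.30. The lowest of the 45 members ranked were CXCL11 in siControl at 0.162 CPM per kilobase and CCL5 in RACK1-Mut at 0.369. Levels per kilobase are not given for rows under 500 exon bases or shared with another gene.

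**Figure D1:**
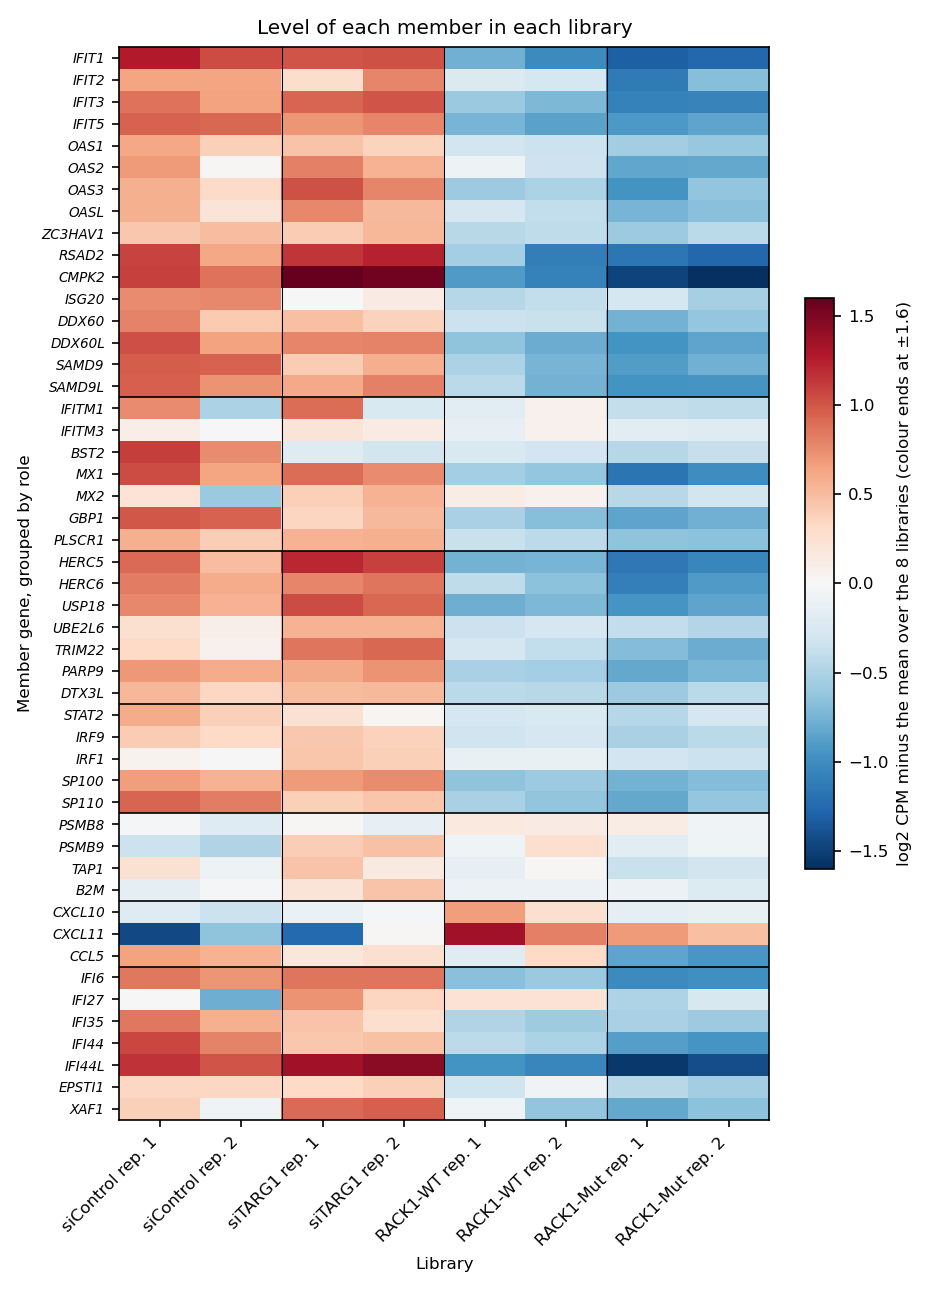
Level of each of the 49 members tested (rows, in 7 groups by role) in each of the 8 libraries (columns), as log2 CPM minus the member's mean over the 8 libraries; red is above and blue below that mean. Most rows are red in the 4 transfected libraries and blue in the 4 libraries of the RACK1 lines, with exceptions among IFITM1, BST2, MX2, the antigen processing genes, the chemokines and IFI27.

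The first comparison set the transfected cells, as the mean of siControl and siTARG1, against the RACK1 lines, as the mean of RACK1-WT and RACK1-Mut. Effectors that act on RNA and nucleotides were higher in the transfected cells without exception, with CMPK2, IFIT1 and RSAD2 at more than 4 times the level. Antigen processing genes differed little, and the chemokine CXCL11 was lower. In all, 43 of 49 members were higher and 3 were lower by edgeR's quasi-likelihood test at an adjusted p under 0.05, where 36.2% of all genes tested were called higher and 36.7% lower. A call together with more than a 2-fold increase was met by 28 members and by 5.33% of all genes. The median log2 fold change was 1.05 over the members and 0 over all genes. For 36 members every transfected library lay above every library of the RACK1 lines, as for 26.6% of all genes.

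This contrast crosses 2 experiments, so that transfection, Dox, the shRNA, the introduced RACK1, viral transduction, selection and culture cannot be told apart. Other properties of the cells moved with it. Of 8 ovarian carcinoma markers, 2 were higher in the transfected cells, MUC16 (log2 fold change 0.95) and EPCAM (0.33), and 6 were lower. The shares of all genes were 36.2% higher and 36.7% lower. The lowest marker value was that of MSLN (-2.88), at 21.4 to 25.8 CPM in the transfected cells and 161 to 179 in the RACK1 lines. Between siControl and RACK1-WT alone, 3 markers were higher and 4 lower, where 31.4% of all genes were higher and 31.9% lower. There KRT18, lower in the pooled contrast, was higher in siControl (0.39), and KRT8 was not called (0.16). The 5 leukocyte markers summed to 3.88 to 6.97 CPM in the transfected cells and to 7.72 to 8.59 in the RACK1 lines, with CD3E at 0 in all libraries, and the 4 fibroblast markers to 6.51 to 9.10 and 6.57 to 8.77. The 2 endothelial markers with a row summed to 2.70 to 3.99 and 3.53 to 4.23 CPM. The part of these differences in the members' levels was not tested.

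CMPK2, a mitochondrial nucleotide kinase, had 24.1 and 20.6 CPM in siControl, 34.1 and 32.9 in siTARG1, 6.01 and 5.30 in RACK1-WT, and 4.02 and 3.60 in RACK1-Mut. No transfected library came within 3-fold of a library of the RACK1 lines, and the log2 fold change was 2.56 (standard error, SE, 0.08, edgeR adjusted p = 3.1e-12). RSAD2, which encodes the antiviral enzyme viperin and lies beside CMPK2 on chromosome 2, had 29.1, 21.2, 30.4 and 32.2 CPM in the transfected libraries and 9.47, 6.38, 6.17 and 5.74 in the RACK1 lines. Its log2 fold change was 2.04 (SE 0.12, adjusted p = 1.7e-09). IFIT1, which binds foreign RNA at its end, had 567 and 488 CPM in siControl, 476 and 478 in siTARG1, 139 and 117 in RACK1-WT, and 95.6 and 99.3 in RACK1-Mut. It rose by 2.17 on the log2 scale in the transfected cells (SE 0.07, adjusted p = 2.1e-12), with its relatives IFIT3 (1.73, SE 0.06, 9.0e-12) and IFIT5 (1.68, SE 0.05, 2.0e-12).

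All 16 members of this group were called higher, where 36.2% of all genes were, with a median log2 fold change of 1.39. The rest ran from DDX60L (1.62, SE 0.08, adjusted p = 2.6e-10), a helicase relative, through the growth and translation regulators SAMD9L (1.55) and SAMD9 (1.46), to OAS3 (1.33), OAS2 (1.05) and OAS1 (0.91), which make the oligoadenylates that activate RNase L, and their relative OASL (1.05). DDX60 (1.04), the zinc-finger antiviral protein ZC3HAV1 (0.93) and the exonuclease ISG20 (0.83) were higher as well. IFIT2 (1.16) rests on 451 exon bases and fewer than 1 CPM in every library.

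The enzymes that attach or remove ISG15 and ubiquitin were all higher, 7 of 7 tested, where 36.2% of all genes were. Their median was 1.30. HERC5, the main ligase for ISG15, had 118, 88.2, 145 and 134 CPM in the transfected libraries and 37.3, 37.5, 28.4 and 30.4 in the RACK1 lines, a log2 fold change of 1.85 (SE 0.08, adjusted p = 7.6e-11). USP18, which removes ISG15 and dampens receptor signaling, rose by 1.65 (SE 0.06, 2.1e-11), HERC6 by 1.53, TRIM22 by 1.08 and the conjugating enzyme UBE2L6 by 0.74. PARP9 and DTX3L, partners in a complex that joins ADP-ribose to ubiquitin, rose by 1.30 and 0.95. These partners overlap on opposite strands, and whether the counting used strand is not given in the sources used here.

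Among membrane proteins and GTPases, 6 of 7 tested were higher, where 36.2% of all genes were, with a median of 0.69. MX1, a dynamin-like GTPase, had 385, 290, 348 and 318 CPM in the transfected libraries and 129, 122, 83.7 and 94.1 in the RACK1 lines (log2 fold change 1.67, SE 0.08, adjusted p = 2.0e-10). Its relative MX2 had 5.92, 3.37, 6.62 and 7.49 against 5.53, 5.33, 3.75 and 4.14 CPM, with overlapping groups and no call. GBP1, at 97.6 to 154 CPM against 43.0 to 53.9, was also higher, and the changes were 1.04 for PLSCR1, 0.69 for BST2, and 0.58 and 0.22 for the short rows of IFITM1 and IFITM3. The call for IFITM1 was lost without any 1 of 6 libraries (siControl replicate 1, siTARG1 replicate 1 or any library of the RACK1 lines) and with DESeq2, and that for IFITM3 with coding-sequence reads (adjusted p = 0.30).

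All 5 transcription factors and nuclear body proteins were higher, where 36.2% of all genes were. The changes were 1.33 for SP100, 1.29 for SP110, 0.76 for IRF9, 0.63 for STAT2 and 0.45 for IRF1. The row of IRF9 also holds RNF31. Of the remaining interferon-induced proteins, IFI44L had 546, 494, 622 and 669 CPM in the transfected libraries and 126, 119, 83.8 and 91.8 in the RACK1 lines, with a log2 fold change of 2.48 (SE 0.06, adjusted p = 1.6e-13). IFI6 rose by 1.63 (SE 0.05, 2.4e-12), IFI44 by 1.38, XAF1 by 1.09, IFI35 by 1.08 and EPSTI1 by 0.68. IFI27, a mitochondrial protein, was not called, with 56.3, 32.9, 93.0 and 71.8 CPM in the transfected libraries and 66.1, 65.9, 40.1 and 47.1 in the RACK1 lines.

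The 4 antigen processing genes stood apart from this pattern in their values, with a median of 0.13. TAP1, a subunit of the peptide transporter, rose by 0.40, and B2M, the light chain of class I molecules, by 0.25. Neither was called between siControl and RACK1-WT alone, at 0.15 and 0.01. The immunoproteasome subunit PSMB8 fell by 0.16 and its partner PSMB9 was at 0.01. PSMB8, PSMB9 and TAP1 are neighbors on chromosome 6 and overlap in part on opposite strands. Of the chemokines, CXCL11 was at 0.226, 0.392, 0.260 and 0.622 CPM in the transfected libraries and at 1.56, 1.08, 0.987 and 0.860 in the RACK1 lines, all low levels, and fell by 1.59 (SE 0.28, adjusted p = 1.4e-04). CXCL10 fell by 0.34. It was at 2.56, 2.32, 2.74 and 2.90 CPM in the transfected libraries, 4.70 and 3.53 in RACK1-WT and 2.67 and 2.72 in RACK1-Mut. The RACK1-Mut libraries thus lay within the range of the transfected ones. CCL5 rose by 0.81, although RACK1-WT replicate 2 (1.22 CPM) lay above both siTARG1 libraries (1.11 and 1.17). The calls for CXCL10 and PSMB8 were lost under several settings, among them coding-sequence reads (CXCL10 at -0.04, adjusted p = 0.88) and without siControl replicate 2 or RACK1-WT replicate 1.

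**Figure D2:**
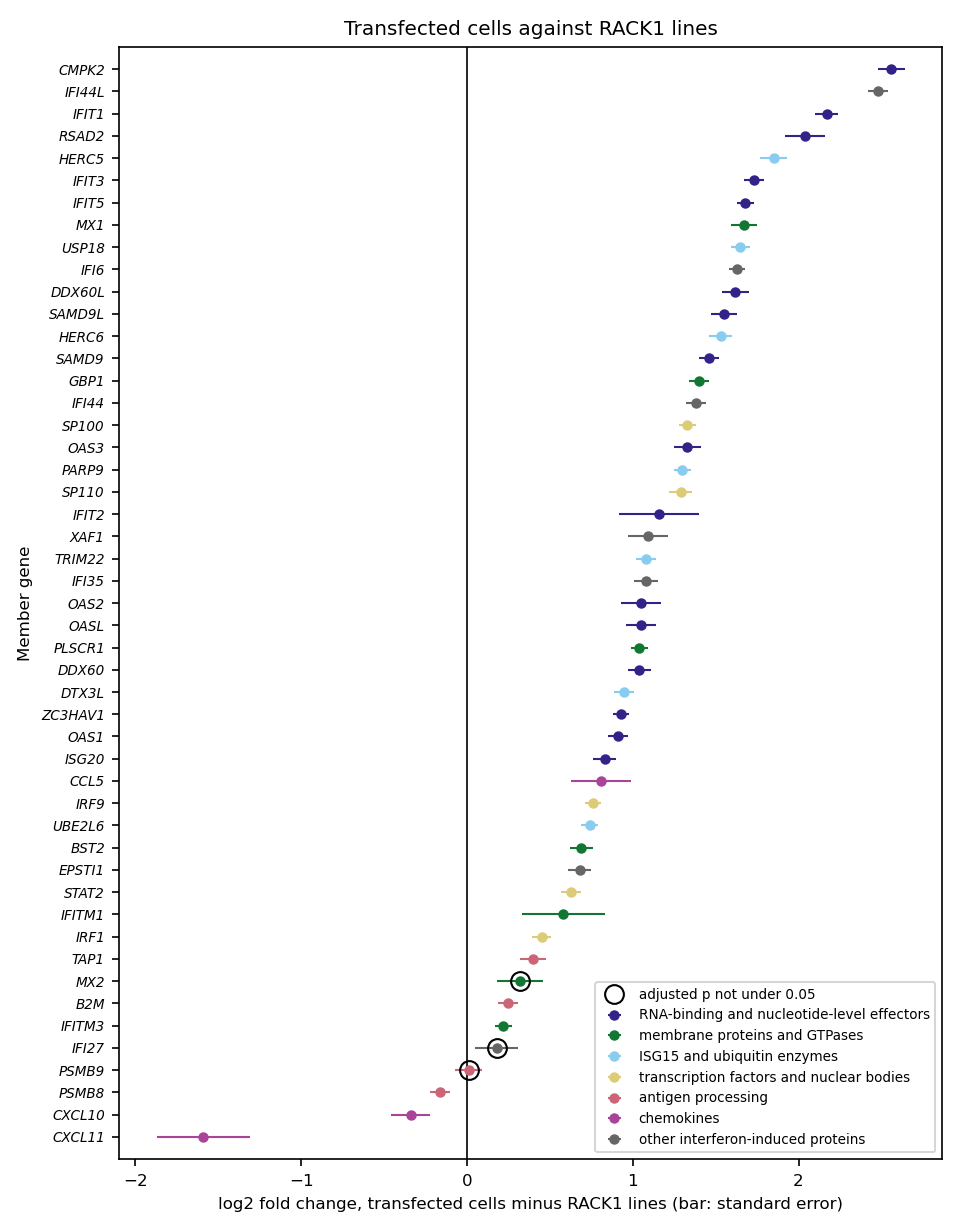
Log2 fold change of each of the 49 members tested, transfected cells minus RACK1 lines, in order of size, colored by role (points; bars, standard error; rings, adjusted p not under 0.05). The values run from -1.59 for CXCL11 to 2.56 for CMPK2, and 43 members lie to the right of 0 with a call.

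The same contrast without the knockdown and the mutant, siControl against RACK1-WT, called 37 of 49 members higher and 5 lower, where 31.4% of all genes were higher and 31.9% lower. The median log2 fold change was 0.89 over the members, and 22 of them, against 5.78% of all genes, were called and over 2-fold higher. IFI44L (2.09), IFIT1 (2.04) and CMPK2 (1.99) led again. CXCL11 (-2.12), CXCL10 (-0.74), IFI27 (-0.56), PSMB9 (-0.52) and PSMB8 (-0.25) were lower in siControl. MX2 was again not called. Also not called were IFITM1 (0.34), IFITM3 (0.08), IRF1 (0.15), TAP1 (0.15), B2M (0.01) and CCL5 (0.50), which the first comparison had called higher. Without siControl replicate 1 the test called 34 members higher and 6 lower, and without siControl replicate 2 it called 38 higher and 3 lower, with IFI27 at -0.23 (adjusted p = 0.14) and PSMB8 at -0.16 (adjusted p = 0.22). With coding-sequence reads CXCL10 was at -0.18 (adjusted p = 0.64). The higher calls for IFIT2, OAS2 and XAF1 were also lost under some settings, OAS2 at 0.20 and XAF1 at 0.25 without siControl replicate 1. This comparison shares its libraries with the one before and is not separate evidence.

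Interferon transcripts themselves were near the limit of detection. Of 21 ligand genes with a row, 14 were at 0 in all libraries, among them IFNG and IFNA13, whose row holds no exon bases and could take no read, and the sum of all ligands was 1.32 to 2.93 CPM in the transfected cells and 1.21 to 1.42 in the RACK1 lines. IFNB1 had 2 to 5 reads per library. IFNE, the epithelial type I interferon, made up most of the sum, with 2.43 and 1.80 CPM in siControl, 0.804 and 0.981 in siTARG1, 0.858 and 0.968 in RACK1-WT and 0.839 and 1.05 in RACK1-Mut. It was higher in the transfected cells by 0.57 (SE 0.18, edgeR adjusted p = 0.012), and the lambda interferon IFNL1, at 4 to 20 reads per library, by 1.08 (SE 0.35, 0.012). In IFNE only siControl stood above the other groups. In IFNL1 only siTARG1 did, at 0.426 and 0.479 CPM. Its siControl libraries were at 0.251 and 0.262 CPM and those of RACK1-WT at 0.286 and 0.142.

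Of 11 rows tested for receptors, kinases and factors, 6 were higher and 4 lower in the transfected cells. The shares of all genes, for this list and those that follow, were 36.2% higher and 36.7% lower. IRF7, a factor that amplifies interferon production, was at 54.0 to 67.6 CPM in the transfected cells and 20.6 to 29.4 in the RACK1 lines (log2 fold change 1.32). The receptor chain IFNAR1 was lower (-0.79), as was the row shared by IFNAR2 and IL10RB (-0.81). Of 9 sensing genes tested, 7 were higher and 1, MAVS (-0.34), was lower. RIGI, the RNA sensor RIG-I, rose by 1.74, TLR3 by 1.52, the kinase EIF2AK2 (PKR) by 0.89 and DHX58 by 0.83. Of 20 further interferon-induced genes, 15 were higher, led by PARP12 (1.57), HELZ2 (1.28) and APOL6 (1.27), and 1 was lower, APOL1 (-2.82). Of 6 inhibitors, SOCS1 (0.54), PTPN2 (0.18) and PTPN6 (0.14) were higher and PTPN11 (-0.13) was lower. The 13 NF-kB targets divided into 4 higher, 3 lower and 6 not called, the largest values being those of CCL20 (2.52), IL6 (-1.82), NFKBIA (1.1) and CXCL8 (0.93). The values of CCL20 and IL6 rest on few reads. CCL20 had 6 to 9 reads per library in the RACK1 lines, and IL6 had 11 to 26 in the transfected libraries.

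The second comparison asked how depletion of TARG1 changed the members, siTARG1 against siControl. The members moved in both directions: BST2, ISG20 and GBP1 fell, while IFI27, PSMB9, XAF1 and TRIM22 rose. In all, 14 of 49 were called higher and 9 lower, and 26 were not called, where 23.5% of all genes were higher and 23.1% lower. The median log2 fold change was 0.08 over the members and 0.01 over all genes. Both shares were near those of all genes.

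BST2, or tetherin, which holds budding virus particles at the cell surface, had 87.7 and 69.3 CPM in siControl and 35.6 and 33.5 in siTARG1. Both siTARG1 libraries were at about the level of the RACK1 lines (29.9 to 34.4 CPM), and BST2 fell by 1.19 (SE 0.10, edgeR adjusted p = 4.1e-07). ISG20 had 21.9 and 22.0 CPM in siControl and 13 and 14.2 in siTARG1 (log2 fold change -0.69, SE 0.10, 7.3e-05). GBP1, a GTPase best known as a target of interferon gamma, had 154 and 149 CPM against 97.6 and 111 (-0.54, SE 0.08, 8.1e-05). IFI44 (-0.48, SE 0.08, 3.2e-04) and SAMD9 (-0.46, SE 0.09, 6.1e-04) followed, and SP110 (-0.46), STAT2 (-0.35), IFI35 (-0.35) and IFIT5 (-0.18) completed the members called lower.

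Among the members called higher, IFI27 had 56.3 and 32.9 CPM in siControl and 93.0 and 71.8 in siTARG1 (log2 fold change 0.88, SE 0.18, adjusted p = 0.0012). Its siControl libraries differed more from each other than its siTARG1 libraries did, and the groups did not overlap. PSMB9 had 10.8 and 9.78 CPM against 17.9 and 19.0 (0.84, SE 0.12, 4.5e-05), while PSMB8 stayed between 42.4 and 49.8 and was not called. XAF1, which opposes an inhibitor of apoptosis, had 11.7 and 8.54 CPM against 16.9 and 17.4 (0.75, SE 0.16, 0.0014), and TRIM22, a ubiquitin ligase of the tripartite motif family, 104 and 87.3 against 150 and 157 (0.68, SE 0.09, 1.9e-05). CMPK2 rose by 0.58 (SE 0.10, 2.4e-04), MX2 by 0.58 (SE 0.19, 0.023) and OAS3 by 0.46 (SE 0.11, 0.0036). The remaining calls were HERC5 (0.43), B2M (0.42), IRF1 (0.38), UBE2L6 (0.38), USP18 (0.31), IFI44L (0.31) and IFIT3 (0.21).

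By role, beside the 23.5% of all genes called higher and 23.1% lower, 4 of 7 ISG15 and ubiquitin enzymes were called higher and 0 lower, a count that includes HERC5 and USP18, whose calls were lost without siControl replicate 2. Of the 4 antigen processing genes, 2 were called higher. The RNA-binding effectors divided into 3 higher, 3 lower and 10 not called, and no chemokine was called. Related genes and neighbors could differ. IFI44L was at 546 and 494 CPM in siControl and 622 and 669 in siTARG1, whereas its neighbor IFI44 was at 163 and 135 and at 105 and 108, and the edgeR test called them in opposite directions. In the IFIT family, IFIT3 was called higher and IFIT5 lower, and both calls were lost when single libraries were left out.

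Several of these calls changed with the siControl library left out. Without siControl replicate 2 the test called 10 members higher, and without siControl replicate 1 it called 19 higher and 6 lower. The calls for BST2, ISG20, GBP1, IFI44, SAMD9, SP110, IFI27, PSMB9, XAF1, TRIM22, CMPK2, OAS3, B2M, IRF1, UBE2L6 and IFI44L held under every setting tried, and those for IFIT3, IFIT5, MX2, HERC5, USP18, STAT2 and IFI35 did not. For MX2 the value was 1.08 without siControl replicate 1 and 0.26 (adjusted p = 0.23) without replicate 2, for HERC5 0.67 and 0.24, and for IFIT3 0.35 and 0.11. IFI27 was at 1.34 and 0.56 and XAF1 at 1.02 and 0.56 in the same order. Without siControl replicate 1, STAT2 was at -0.23 and IFI35 at -0.19. Of the 8 ovarian carcinoma markers, 4 were lower in siTARG1, KRT18 (-1.31), KRT8 (-1.08), WT1 (-0.74) and MUC16 (-0.70), and KRT7 (0.44) was higher. Of all genes, 23.1% were lower and 23.5% higher. The part of these markers' changes in the members' levels was not tested.

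The counts for lists elsewhere in the pathway stand beside the 23.5% of all genes called higher and 23.1% lower in siTARG1. Of 11 rows for receptors, kinases and factors, 2 rose in siTARG1, JAK2 (0.62) and JAK1 (0.17). In the same list 3 fell, IFNGR2 (-0.64), IFNAR1 (-0.57) and the row of IFNAR2 and IL10RB (-0.28). IFNE fell by 1.26 (SE 0.24, edgeR adjusted p = 6.2e-04). Of 9 sensing genes, TLR3 (0.52), TBK1 (0.26) and MAVS (0.24) rose and STING1 (-1.03), DHX58 (-0.50) and ADAR (-0.25) fell. STING1, the adaptor of cytosolic DNA sensing, was at 48.4 and 44.4 CPM in siControl and 23.7 and 21.8 in siTARG1. Of 20 further interferon-induced genes, 7 rose and 3 fell, with GBP2 (-1.08), NLRC5 (0.62), TAP2 (0.57, in a row shared with another gene) and CD274 (0.52) as the largest. Of the inhibitors, PTPN11 (0.50) rose and PTPN6 (-0.30) and SOCS3 (-0.25) fell. Of 13 NF-kB targets, 4 rose and 5 fell, among them the chemokines CXCL1 (-2.01), CXCL2 (-1.24) and CXCL3 (-1.11), while CCL2, with 1 read in each siControl library and 16 and 26 reads in siTARG1, rose.

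**Figure D3:**
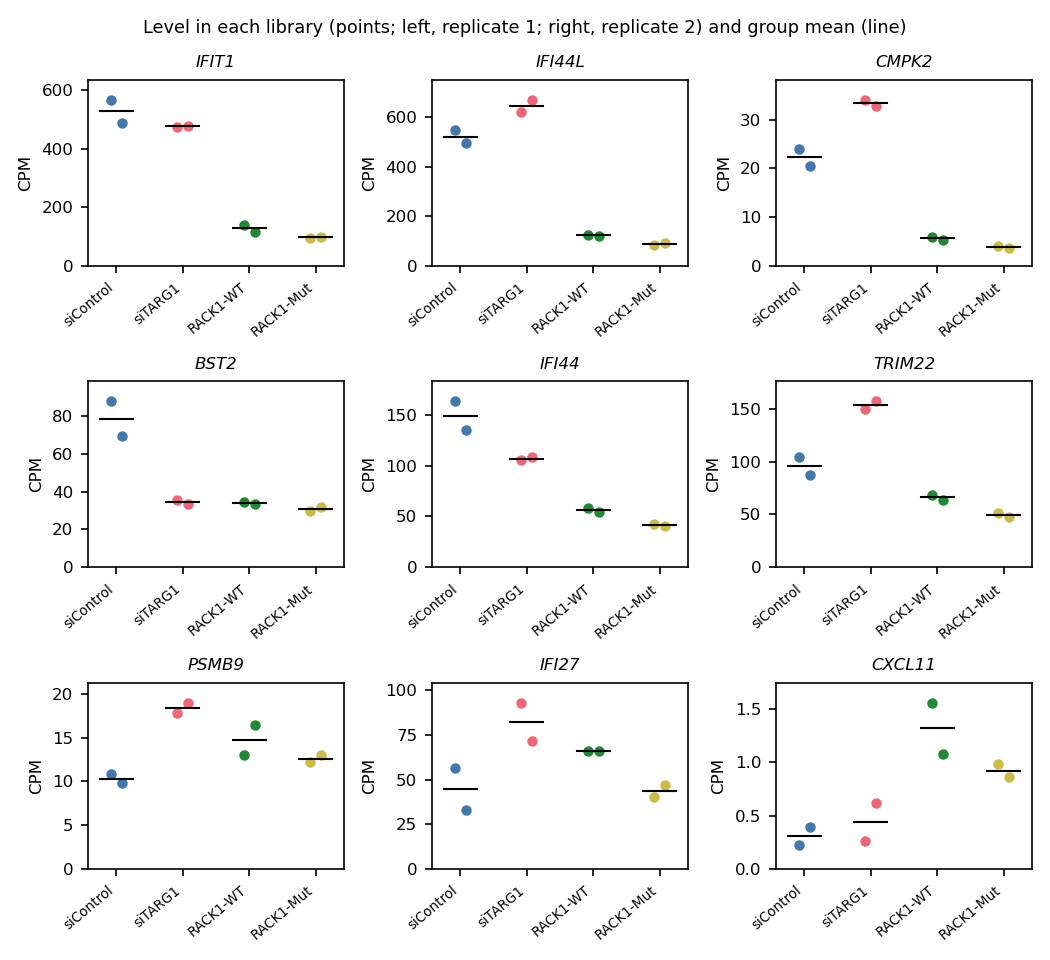
CPM of 9 members in each of the 8 libraries (points) with the group mean (line), each panel on its own linear axis from 0. IFIT1, IFI44L and CMPK2 are high in both transfected groups, BST2 is high in siControl alone, IFI44 and TRIM22 move apart in siTARG1, PSMB9 and IFI27 overlap between the transfected cells and the RACK1 lines, and CXCL11 is lower in the transfected cells.

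The third comparison, RACK1-Mut against RACK1-WT, asked about the RACK1 that cannot be modified at its mono(ADP-ribose) sites. No member was called in either direction, where 0% of all genes were called higher and 0.00713% lower. The differences were nonetheless one-sided. The log2 fold change was negative for 48 of 49 members, where 48.2% of all genes were lower, and its median was -0.28 over the members, a ratio of 0.825, and 0 over all genes. For 41 members both RACK1-Mut libraries lay below both RACK1-WT libraries, as for 18.5% of all genes. An unadjusted p under 0.05 with a lower value was reached by 29 members and by 2.49% of all genes. Members may be coregulated and share these 4 libraries, so the count of 48 is not 48 separate observations.

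IFI44L, named after its values were seen, had 126 and 119 CPM in RACK1-WT and 83.8 and 91.8 in RACK1-Mut, a log2 difference of -0.48 (SE 0.08, edgeR unadjusted p = 3.1e-05, adjusted p = 0.11). MX1 was at 129 and 122 CPM against 83.7 and 94.1, IFI6 at 163 and 172 against 128 and 131, and IFIT1 at 139 and 117 against 95.6 and 99.3. In each of these the 2 groups were separated. IFI44 was at 58.6 and 54.7 CPM against 42.5 and 40.4, HERC6 at 29.8 and 25.1 against 18.5 and 21.0, and TRIM22 at 68.8 and 63.3 against 51.6 and 47.8. CCL5 had the lowest value of all, -0.99, at 0.858 and 1.22 CPM against 0.543 and 0.511. ISG20, at 9.44 and 9.83 CPM in RACK1-WT and 10.7 and 8.95 in RACK1-Mut, was the member whose value was not negative (0.02). The groups overlapped for IFIT5, ZC3HAV1, ISG20, DTX3L, STAT2, SP110, B2M and IFI35.

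The number of calls depended on the model. With edgeR on the 4 libraries of the RACK1 lines alone, 12 members were called lower among 49 genes called in all, and with DESeq2 on all libraries 8 among 17. Those 8 were IFIT1, IFIT3, MX1, HERC6, TRIM22, IFI6, IFI44 and IFI44L, each called lower also with the 4 libraries alone. Without siControl replicate 1 the test called 2 members, without siControl replicate 2 4, and without either siTARG1 library 1, whereas no member was called when any library of the RACK1 lines was left out. RACK1 itself was at 1760 and 1900 CPM in RACK1-WT and 1400 and 1450 in RACK1-Mut, and whether that difference has a part in the members' levels was not tested. In the other lists no gene was called in this comparison: the medians were 0.02 for receptors, kinases and factors, -0.09 for sensing genes and -0.11 for the further interferon-induced genes.

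The difference between the siTARG1 and RACK1-Mut effects was tested itself. It passed for 26 of 49 members, 23 with the larger value in siTARG1 and 3 with the smaller, where 32.4% of all genes passed. The largest difference was that of IFI27 (1.48, SE 0.25, edgeR adjusted p = 5.5e-04), with 0.88 in siTARG1 and -0.60 in RACK1-Mut. XAF1 (1.16), CMPK2 (1.14), TRIM22 (1.09), PSMB9 (1.07) and MX2 (1.04) likewise had positive values in siTARG1 and negative ones in RACK1-Mut. BST2 (-1.05), ISG20 (-0.71) and GBP1 (-0.33) fell in siTARG1 by more than they differed in RACK1-Mut. IFI44 was negative in both, at -0.48 and -0.45, and its difference was not called (-0.03, SE 0.12, adjusted p = 0.87). Without RACK1-Mut replicate 1, 16 members passed.

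**Figure D4:**
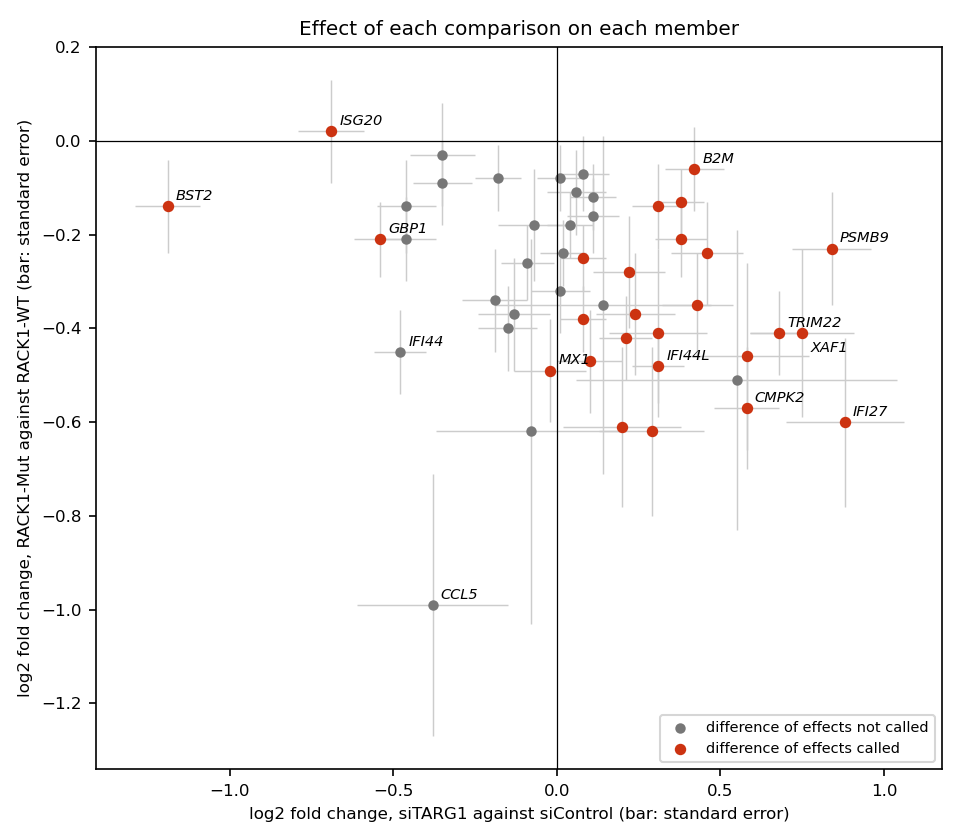
Log2 fold change of each of the 49 members tested in siTARG1 against siControl (horizontal axis) and in RACK1-Mut against RACK1-WT (vertical axis), with standard errors as bars; red points are members for which the difference of the effects was called. The points spread from -1.19 to 0.88 along the horizontal axis, and all but ISG20 lie below 0 on the vertical axis.

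The members tested that had a promoter window were also described by whether it held the ISRE letters, with no test of the difference. In the transfected cells against the RACK1 lines, the median log2 fold change was 1.30 over 27 members with the letters, from -0.34 to 2.48, and 0.93 over 15 without, from -1.59 to 2.56. The highest value of all belonged to CMPK2, which has no such letters in its window, and CXCL10, which has them, was lower. In siTARG1 the medians were 0.08 with the letters and 0.10 without, and in RACK1-Mut -0.28 and -0.21. BST2, ISG20 and GBP1, which fell in siTARG1, and IFI27, which rose most, carry the letters in the windows shown above. PSMB9, XAF1 and CMPK2, which rose, and SP110, STAT2 and IFI35, which fell, do not have them. In siTARG1, 6 of the 27 members with the letters were called higher and 6 lower. Of the 15 without, 5 were called higher and 3 lower, where 23.5% of all genes were higher and 23.1% lower.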

How the data were processed

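RNA-seq of OVCAR3 cells was used, with 2 libraries in each of 4 groups, grouped by their titles. The study describes its genomic experiments as done on independent biological samples. The authors removed rRNA and contaminant reads with Bowtie (1.1.2), aligned the rest to GRCh37 transcripts with TopHat2 (2.1.1) and used Plastid to count, for each gene, alignments that were 25 to 51 bases long. The deposited values are estimated counts per gene, not whole and not normalized, for exons, coding sequence and untranslated regions. The authors also deposited RPKM, those counts per kilobase of region and library size, used here only to check the order of levels. Positions shared between genes appear to be left out of a row's length, and paralogs of the IFIT, IFITM, OAS, MX, DDX60 and SAMD9 families may share reads.

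Rows name transcripts, matched to Gencode on GRCh37: 94.7% of 36595 names matched, 553 rows with 1.19% of counts did not, and 456 rows joined several genes. Rounded exon counts entered the quasi-likelihood test of edgeR (4.0.16, in R 4.3.3) with TMM, filterByExpr and a mean per group (4 residual degrees of freedom). The p-values were adjusted by Benjamini-Hochberg for the 14024 genes that passed the filter, with a threshold of 0.05. The SE was taken as the log2 change over the root of F. The script was tested on simulated data. Contrasts and alternatives are named where given, and DESeq2 (1.42.0) was one alternative. With 2 libraries a group, depth limits the low rows (IFIT2, CXCL11, CCL5, IFN genes).

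Members and lists were chosen with earlier results of these data known. The 12 members with the largest change past the threshold in a comparison get full statistics. From other lists, all genes past the threshold are named up to 6, otherwise the 4 largest. MAVS, IFNB1, IFNG and values quoted for genes not called were picked after seeing them. The result of 1 listed gene is not reported here. Promoters are from RefSeq. Figures used Python 3.11.15 and matplotlib.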

Additional observations from a re-analysis of the deposited data

Results flagged for a closer look

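The effects of siTARG1 and RACK1-Mut differed from each other for 26 of 49 members by the edgeR test of the difference, where 32.4% of all genes passed. Values are given here as the siTARG1 effect minus the RACK1-Mut effect on the log2 scale. Among RNA-binding and nucleotide-level effectors these were CMPK2 (1.14), OAS2 (0.91), RSAD2 (0.71), OAS3 (0.70), IFIT3 (0.63), OASL (0.62) and ISG20 (-0.71). Among membrane proteins and GTPases they were MX2 (1.04), MX1 (0.47), PLSCR1 (0.33), GBP1 (-0.33) and BST2 (-1.05). All ISG15 and ubiquitin enzymes that passed had positive differences, TRIM22 (1.09), HERC5 (0.78), HERC6 (0.57), UBE2L6 (0.51) and USP18 (0.45). The transcription factor IRF1 (0.59), the antigen processing genes PSMB9 (1.07), TAP1 (0.50) and B2M (0.48) and the chemokine CXCL10 (0.81) passed as well. The other interferon-induced proteins were IFI27 (1.48), XAF1 (1.16), IFI44L (0.79) and IFI6 (0.46).

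Of the 26, 14 were called under every setting tried, and OAS2, OASL, RSAD2, MX1, MX2, PLSCR1, HERC6, USP18, TAP1, CXCL10, IFI6 and GBP1 were not. In RACK1-Mut against RACK1-WT by itself, edgeR on all 8 libraries called 0 of 49 members. An unadjusted p under 0.05 with a lower value was reached by 29 members and by 2.49% of all genes. DESeq2 called 8, and edgeR on the 4 libraries of the RACK1 lines called 12, among them IFIT3, OAS2, MX1, HERC5, HERC6, TRIM22, IFI6, IFI27 and IFI44L of the members named here.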

How the results depend on the processing

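No called value changed sign under any setting. The settings were RLE scaling, no filter or at least 10 counts, DESeq2, coding-sequence reads, only the compared groups, the replicate block each library left out and, chosen after seeing the data, no short or joined rows. Members called lower in RACK1-Mut against RACK1-WT numbered 5 with no filter on low counts, 8 with DESeq2 and 12 with only the compared libraries (0 as reported). Members lower in the transfected cells numbered 1 with coding-sequence reads (3 as reported).

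Leaving out 1 library at a time gave 10 to 19 members higher and 6 to 9 lower in siTARG1, 0 to 4 lower in RACK1-Mut, 42 to 45 higher and 1 to 3 lower in the transfected cells, 34 to 38 higher and 3 to 6 lower in siControl against RACK1-WT, and 16 to 28 with a difference of effects. A group left with 1 library is assumed to vary like the others. The cause of these shifts was not tested. Of the 43 members higher in the transfected cells, 41 were called under every setting.

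The main fit did not pair the libraries by replicate number, and whether these numbers mark pairs was not settled. For siControl with siTARG1, the correlation of deviations was 0.22 over all genes and 0.80 over the members. For other pairs of groups it was -0.09 to 0.03 (-0.39 to 0.01 over the members). With the replicate block, 16 members were higher and 8 lower in siTARG1, 0 were called in RACK1-Mut, and 43 were higher in the transfected cells. The block is a single replicate effect shared by all 4 groups, so it does not test pairing of siControl with siTARG1 alone. Rows of few reads (IFIT2, IFITM1, CXCL11, CCL5) are limited by depth.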
